A study of Homo sapiens with 24 samples.

Results

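HT29 is an established cell line from a human colon adenocarcinoma. The transcriptional response of these cells to a 6 h exposure to C3/C2, a mixture of 30 mM propionate and 15 mM acetate, was measured against untreated cells (NT), with 4 arrays in each group. Propionate and acetate were applied only together, so the response to either acid alone cannot be told apart from that to the mixture. The same mixture was also given with TRAIL (100 ng/ml with 2 μg/ml of anti-Flag antibody, TRAIL+C3/C2) and compared with TRAIL alone, again with 4 arrays each. All cells were HT29, and a culture supernatant of dairy propionibacteria (SN), alone or with TRAIL, made up the remaining arrays of the 24. The members described here are all genes with a measurable probe. The arrays carry 50599 probes with 36337 names, of which 20700 were tested as genes because Feature Extraction had marked a probe of theirs as above background throughout 1 group or more. A gene symbol was available for 13980 of them.

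Propionate and acetate are short-chain fatty acids that gut bacteria release when they ferment fibre or lactate. They enter colon cells through monocarboxylate transporters, are activated to their acyl-coenzyme A forms and are burned in mitochondria, and receptors such as FFAR2 sense them at the cell surface. Propionate also inhibits histone deacetylases, enzymes that remove acetyl groups from histone tails. Inhibitors of these enzymes are known to change the transcription of many genes in colon cancer lines, among them the cell cycle inhibitor gene CDKN1A.

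Each level below is the log2 intensity of a gene's probe relative to the 75th percentile of its own array, so a level of 0 stands for a spot at that percentile. Levels of single genes are not set against each other, and medians, ranks and sums of levels over sets of genes are descriptions only. The 75th percentile of intensity lay between 745 and 1009 on the NT arrays and between 770 and 899 on the C3/C2 arrays, no spot was saturated, and arrays of the same group correlated with r of 0.993 to 0.998 across genes, which are not independent replicates. Between 53.4% and 55.4% of probes were well above background on an NT array and between 56.2% and 57.8% on a C3/C2 array. NT replicate 1 and C3/C2 replicate 1 lay on a slide of their own and the other replicates together on another slide. On both slides the NT arrays lay in the first row and the C3/C2 arrays in the second, so row and group cannot be told apart. All 12 intestinal epithelial markers examined were well above background on all 8 arrays, and none was called different between the groups. Of 8 markers of fibroblasts and endothelium, 4 were above background on no array. In bulk RNA, a change in the share of cells that express a gene and a change in its RNA per cell cannot be told apart. Cells were treated in independent experiments run in duplicate, and the labels do not say which replicate numbers are duplicates, so p-values measure the spread between these arrays, part of which may be technical.

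Propionate and acetate changed a large share of the measured genes within 6 h. With scaling to the 75th percentile, rises were more frequent than falls, and larger on the fitted scale. A gene was called where the fold change was at least 2 and the adjusted p under 0.05 (limma, Benjamini-Hochberg over all 20700 genes). With C3/C2, 2785 genes were called higher (13.5% of those tested) and 1278 lower (6.17%), together 19.6%. Among the genes called higher, the fitted rise was at least 4-fold in 985, 8-fold in 347, 16-fold in 121 and 64-fold in 14. Among those called lower, the fitted fall was at least 4-fold in 154, 8-fold in 13 and 16-fold in 1. These counts include 488 genes called higher that were above background on no NT array. They also include 82 called lower that were above background on no C3/C2 array. Fitted folds of such genes are not measured folds, and the sizes were not counted without them. The median log2 change was 1.65 in the genes called higher, −1.34 in those called lower and 0.08 over all genes tested. All C3/C2 arrays lay above all NT arrays for 6746 genes (32.6%) and below them for 5301 (25.6%). For such a gene a two-sided exact permutation test gives p = 0.0286, the smallest that 4 arrays against 4 allow. The numbers of rises and falls depend on how the arrays were scaled. With each array divided by its median in place of its 75th percentile, all log2 changes drop by 0.30, and 2002 genes were called higher and 2345 lower, which turns the share of rises among calls from 68.5% to 46.1%. With scaling to the Agilent spike-in probes that share dropped to 54.9%, and with quantile normalization to 59.8%.

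**Figure D1:**
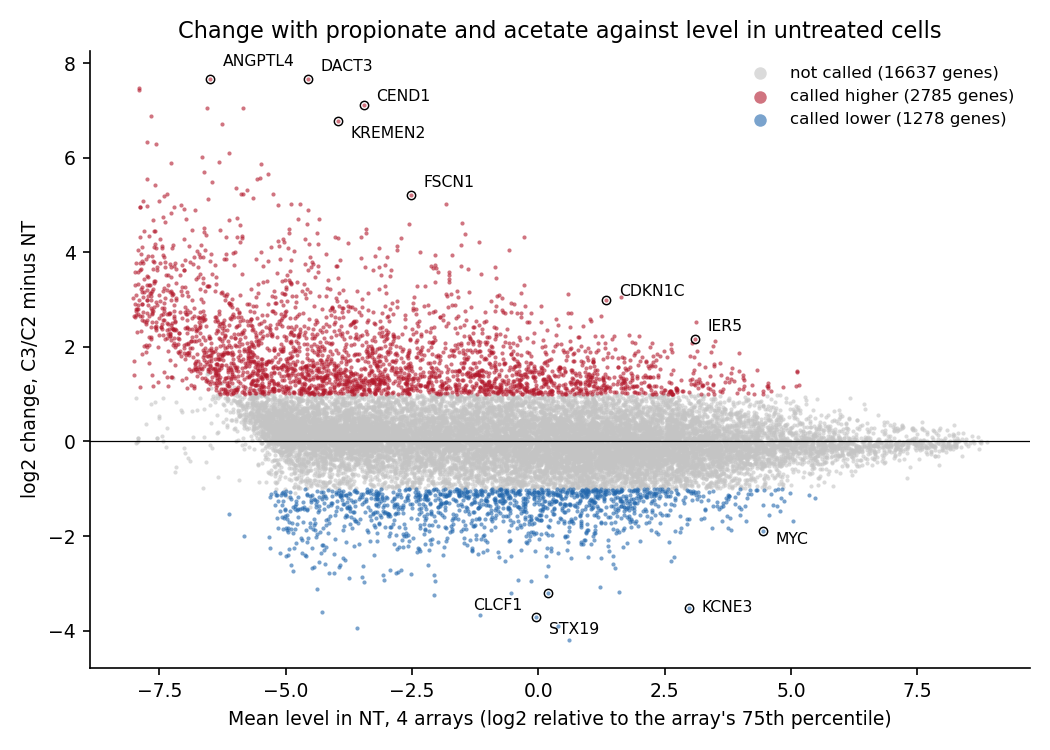
Each point is 1 of the 20700 genes tested, with its mean level on the 4 NT arrays on the horizontal axis (log2 relative to the array's 75th percentile) and the log2 change, C3/C2 minus NT, on the vertical axis. Red points are the 2785 genes called higher and blue points the 1278 called lower. The largest rises start from low levels in NT, a level that is itself part of the change. Genes above background on no NT array, ANGPTL4 among them, are drawn at their fitted values, which are no measured folds.

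The genes called higher had lower NT levels than those called lower. The NT level is itself part of the change that set the calls, and genes dim in NT could enter through another group. The difference is thus partly built in and is given as a description only. The median NT level of the genes called higher was −3.69, against −0.71 for the genes called lower and −0.67 for all genes tested. With genes ranked by mean level over all arrays, not in NT alone, 19.7% of the 6900 dimmest were called higher and 7.28% lower. Of the 6900 brightest in that ranking, 7.23% were called higher and 2.62% lower. That ranking includes treated arrays, so these shares do not describe levels in untreated cells. For 488 of the genes called higher (17.5%), no NT array was well above background. These genes entered the test through another group, so their number is given as a description only. Of the other genes tested that were above background on no NT array, 68 were not called and 1 was called lower. A further 1888 genes called higher and 1076 called lower were above background on all 8 arrays. Where a gene was represented by several probes, all of them shared the call for 375 of 601 genes called higher and for 169 of 301 called lower, and a probe was called in the opposite direction for 1 gene in each set.

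Among genes measured in both groups, the leading rises were of DACT3, CEND1 and KREMEN2, each over 100-fold on the fitted scale. CEND1, which encodes a protein linked to cell cycle exit and neuronal differentiation, had NT levels of −3.20, −3.61, −3.51 and −3.49, and C3/C2 levels of 3.53, 3.44, 3.81 and 3.83. The groups were far apart, with a log2 change of 7.11 (SE 0.11, adjusted p = 8.63e-21), or 138-fold. KREMEN2, a receptor of the Wnt antagonists of the Dickkopf family, had levels of −3.96, −3.78, −4.37 and −3.78 in NT and 2.71, 2.83, 2.79 and 2.86 with C3/C2. Its log2 change was 6.77 (SE 0.11, adjusted p = 8.63e-21). DACT3, which encodes an inhibitor of Dishevelled in Wnt signalling, had C3/C2 levels of 2.93, 2.94, 3.30 and 3.20. Its NT levels were −5.19, −5.55 and −5.24 in replicates 2, 3 and 4, while NT replicate 1 stood apart at −2.28, still well below every C3/C2 array. The log2 change of DACT3 was 7.66 (SE 0.44, adjusted p = 2.17e-12), and 8.42 on leaving out NT replicate 1.

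FSCN1, which encodes the actin-bundling protein fascin, had levels of −2.72, −2.55, −2.52 and −2.28 in NT and 2.48, 2.48, 2.93 and 2.86 with C3/C2, a log2 change of 5.21 (SE 0.12, adjusted p = 1.93e-18). MICB, a stress-induced ligand of the natural killer cell receptor NKG2D, rose by 4.89 on the log2 scale (SE 0.22, adjusted p = 5.41e-14), from between −5.26 and −3.62 in NT to between 0.25 and 0.44. TNFSF9, the ligand of the T cell costimulatory receptor 4-1BB, lay between −2.61 and −2.52 on all NT arrays and between 1.89 and 2.15 with C3/C2, a log2 change of 4.60 (SE 0.12). Both immune ligands were thus above background in untreated cells, and no array of one group overlapped the other. PLIN5, a lipid droplet protein of oxidative tissues, rose by 5.03 (SE 0.16), and TDRD6, a Tudor domain protein of germ cells, by 5.01 (SE 0.14). The remaining leading rises were of LRRC10B (5.23), ZMYND10, which is needed to assemble dynein arms of cilia (4.70), RGL1, an exchange factor for Ral GTPases (4.70), and NXPH4, a neurexophilin (4.63). The adjusted p of the 12 leading rises was at most 2.17e-12.

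**Figure D2:**
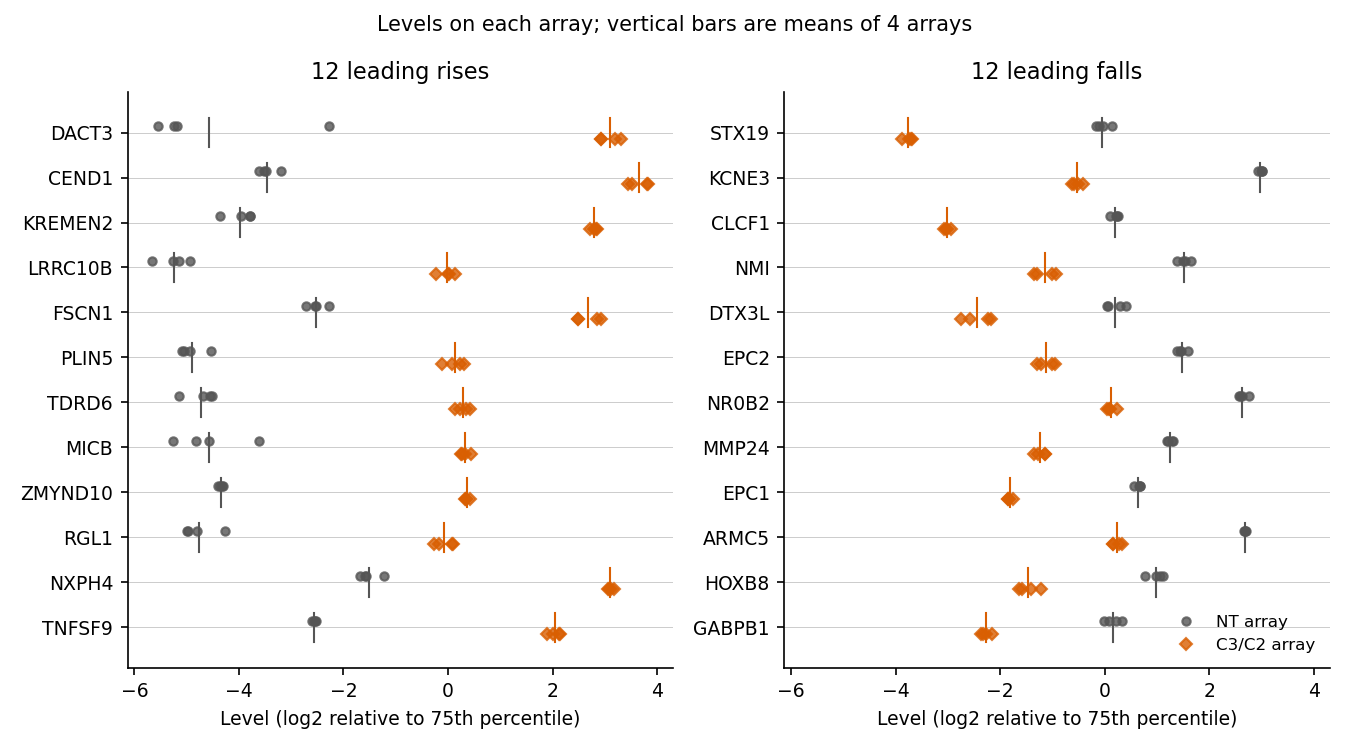
Levels on each array (log2 relative to the array's 75th percentile) of the 12 leading rises and the 12 leading falls among genes above background on all 8 arrays. Circles are NT arrays, diamonds are C3/C2 arrays and vertical bars are the means of 4 arrays. The genes were chosen so that the groups do not overlap, and NT replicate 1 of DACT3 at −2.28 stands apart from the other NT arrays.

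Several genes could not be told from background in untreated cells but were well above it in every C3/C2 array. Their folds are lower bounds, set against the dimmest signal that each NT array could still tell from background. ANGPTL4, a secreted inhibitor of lipoprotein lipase and a target of PPAR receptors, was at least 118-fold higher with C3/C2, at levels of 1.22, 1.18, 1.13 and 1.15. CREB3L3, a membrane-bound transcription factor of liver and intestine that acts in lipid metabolism, was at least 73.8-fold higher. TMEM121 was at least 71.2-fold higher, SLC2A4, the insulin-responsive glucose transporter GLUT4, at least 38.9-fold, SH2D3C, an adaptor protein, at least 37.6-fold and the pseudogene CEACAM22P at least 30.4-fold. SLC2A4 lay between −0.46 and −0.38 on all C3/C2 arrays.

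The leading falls were smaller, and all 12 genes stayed above background with C3/C2. STX19, a syntaxin, had levels of −0.11, −0.16, 0.13 and −0.03 in NT and −3.74, −3.89, −3.71 and −3.69 with C3/C2, a log2 change of −3.71 (SE 0.21, adjusted p = 1.69e-12). KCNE3, the subunit that holds the potassium channel KCNQ1 open in colon crypts, had levels of 2.98, 3.00, 3.00 and 2.93 in NT and −0.52, −0.41, −0.63 and −0.59 with C3/C2. It fell by 3.52 (SE 0.12, adjusted p = 4.14e-16), an 11.4-fold drop with almost no spread among the NT arrays. CLCF1, a cytokine of the interleukin 6 family, fell by 3.21 (SE 0.11, adjusted p = 5.14e-16), from between 0.09 and 0.25 to between −3.07 and −2.94.

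The log2 changes of the remaining leading falls lay between −2.67 and −2.43. EPC1 and EPC2, which encode alternative subunits of the NuA4 histone acetyltransferase complex, fell by 2.46 (SE 0.10) and 2.59 (SE 0.10). NR0B2, an orphan nuclear receptor known as SHP that represses other nuclear receptors, fell by 2.52 (SE 0.17). HOXB8, a homeobox gene, fell by 2.44 (SE 0.14) and GABPB1, the beta subunit of the ETS family factor GABP, by 2.43 (SE 0.08). NMI, an interferon-inducible partner of STAT proteins, fell by 2.67 (SE 0.11), and DTX3L, a ubiquitin ligase that works with PARP9 in the interferon response, by 2.64 (SE 0.14). MMP24, a membrane-bound metalloproteinase, fell by 2.47 (SE 0.09). ARMC5, an armadillo repeat protein, fell by 2.45 (SE 0.07) at the probe that represents it, while its other probe gave 0.13. The adjusted p of the 12 leading falls was at most 4.30e-11.

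A smaller set of genes lost detection. RTP4 and RSAD2, both induced by interferons, were well above background on all NT arrays and on no C3/C2 array, at least 4.85-fold and 4.32-fold lower. PCDHB9, a protocadherin, was at least 3.46-fold lower, CNTLN, a centriole protein, at least 2.77-fold, DGKG, a diacylglycerol kinase, at least 2.70-fold and INSM1, a transcription factor of neuroendocrine cells, at least 2.70-fold.

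Promoters are shown for CDKN1A, whose rise is the best known response to histone deacetylase inhibitors, for CEND1 as a leading rise and for KCNE3 as a leading fall. The sequences are the 250 bases before the RefSeq start of each gene (GRCh38.p14), read in the direction of the gene, at chr6:36678464-36678713 on the plus strand, chr11:790091-790340 on the minus strand and chr11:74467550-74467799 on the minus strand. Capitals mark GC boxes, the letters GGGCGG on either strand, to which factors of the Sp family bind.
CDKN1A: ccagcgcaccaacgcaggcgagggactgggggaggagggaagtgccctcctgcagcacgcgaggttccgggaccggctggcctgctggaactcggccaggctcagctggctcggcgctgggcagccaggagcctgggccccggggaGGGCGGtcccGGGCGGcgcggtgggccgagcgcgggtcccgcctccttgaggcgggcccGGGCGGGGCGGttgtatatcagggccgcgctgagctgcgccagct
CEND1: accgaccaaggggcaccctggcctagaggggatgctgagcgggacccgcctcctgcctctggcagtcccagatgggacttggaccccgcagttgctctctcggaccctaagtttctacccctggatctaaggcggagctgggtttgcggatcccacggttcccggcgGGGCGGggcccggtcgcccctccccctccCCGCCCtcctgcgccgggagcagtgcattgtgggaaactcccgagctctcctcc
KCNE3: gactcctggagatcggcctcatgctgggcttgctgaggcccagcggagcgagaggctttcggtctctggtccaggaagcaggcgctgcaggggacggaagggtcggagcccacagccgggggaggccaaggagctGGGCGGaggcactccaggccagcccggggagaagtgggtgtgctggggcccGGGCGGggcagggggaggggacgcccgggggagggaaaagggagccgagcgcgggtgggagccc
CDKN1A holds 4 GC boxes in this window, overlapping ones counted separately, and CEND1 and KCNE3 hold 2 each, so the genes that rose and the gene that fell share them. The probe of CDKN1A lies at hg19 chromosome 6, 36652178 to 36652237, that of CEND1 at hg19 chromosome 11, 787111 to 787170, and that of KCNE3 at hg19 chromosome 11, 74166486 to 74166545.

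A window of this kind was found for 11747 of the genes tested. A GC box was present in 63.6% of all windows, in 67.8% of 1552 windows of genes called higher and in 55.3% of 785 windows of genes called lower. The CCAAT box (CCAAT, either strand) was present in 34.9% of all windows, in 36.3% of those of genes called higher and in 27.9% of those called lower. The share with TATAAA was 6.71% in all, 7.54% in higher and 5.61% in lower, and that with the E box CACGTG was 8.60%, 6.89% and 7.77%. The letters CCGGAAGT, which GABP and other ETS factors bind, were present in 6.46% of all windows, in 2.84% of those of genes called higher and in 6.62% of those called lower. Dim genes carry these letters less often: among the 3916 windows of the genes with the lowest NT levels the share was 3.22%, and among those of them called higher 1.54%. Among the 3916 with the highest NT levels it was 8.91%, against 6.80% of the 147 called higher. These shares describe letters in a window and were not tested, and levels and base composition move with them: the median GC content was 66.4% in windows of genes called higher, 62.8% in those called lower and 64.4% in all.

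Groups of genes with known roles were described by how many members were called, read against the 13.5% called higher and 6.17% called lower among all genes, and by their median log2 change minus that of all genes, which no scaling of whole arrays alters. With array median scaling, 29 of the 68 counts of members called in a direction moved by over 1.5 times, and 13 of the named genes, all with log2 changes of 1.003 to 1.30, lost their call (ARRDC4, CHAF1A, CTAG2, EGLN3, ERN1, FADS3, H1FX, HIST3H2A, MUC1, OCLN, SIRT2, SLC2A12 and SYCP2). With the normexp background correction, which draws dim spots together, 14 of the 68 counts moved by over 1.5 times and 29 named genes lost their call, with log2 changes then of 0.37 to 0.97 or of −0.98 to −0.37. Those called higher had been ANPEP, ARRDC4, CA4, CNN1, CTAG2, DACT1, EGLN3, ERN1, HIST3H2A, MUC1, NR1H4, OCLN, PLIN1, RAB3B, SLC2A12, SYCP2, TNF, TNFRSF10C and TUBB6, and those called lower CENPA, CNTLN, DGKG, FFAR2, INSM1, KIF20A, MMAA, PCDHB9, RSAD2 and SLC16A6. Genes of lipid burning and storage rose most often among the metabolic groups. Of 28 PPAR targets and genes of fatty acid oxidation tested, 12 were higher and 1 lower, with a median 0.64 above that of all genes. Beside ANGPTL4, CREB3L3 and PLIN5, the lipid droplet gene PLIN1 was at least 2.11-fold higher, PLIN2 rose by 1.499 on the log2 scale, and the receptor genes PPARA and PPARD rose by 1.60 and 1.52. The other PLIN2 probes gave 4.315, called higher, and 0.616, not called. The other PPARA probe gave 0.22 and was not called. PPARGC1A, a coactivator of mitochondrial genes that was above background on 3 NT arrays, rose by 1.94. VNN1, a pantetheinase, was the member that fell (−1.37). Of the genes called higher here, 8 of 12 were above background on all 8 arrays.

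Genes of glucose handling moved with them in part. Of 17 arrestins and transporters regulated by glucose, 5 were higher and none lower, against 2 higher with scaling to the array median and 3 with normexp. MLXIPL, which encodes the glucose-sensing transcription factor ChREBP, had levels of −2.99, −3.11, −2.53 and −2.60 in NT and 1.13, 1.53, 1.20 and 1.45 with C3/C2, a log2 change of 4.13 (SE 0.20, adjusted p = 1.39e-13). ARRDC4, a target of ChREBP, rose by 1.09 (SE 0.14), a call lost on leaving out replicate 4 of NT (0.9955), and the glucose transporter gene SLC2A12 by 1.18 (SE 0.36, adjusted p = 0.00719), with NT replicate 4 above all C3/C2 arrays. With the replicate number as a block the adjusted p of SLC2A12 was 0.0621, and the call was lost, as it was without replicate 3 of NT (0.86). Of 30 genes of glycolysis and hypoxia, 7 were higher and none lower, led by PFKFB4, which makes an activator of phosphofructokinase (2.02), and by the neuronal and hypoxic enolase ENO2 (1.85); with scaling to the array median 3 were higher. Genes of cholesterol synthesis showed no call in 25 tested (limma), although 10 were higher and 6 lower at an adjusted p under 0.05 with no minimum fold. Of 16 genes of fatty acid synthesis, the desaturase family member FADS3 was the 1 called higher (1.19).

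Acid transport and sensing went in both directions. SLC16A3, the lactate exporter MCT4, rose by 1.47 (SE 0.20). The receptor genes FFAR2 and HCAR1 fell. FFAR2, which binds acetate and propionate, had levels of −3.26, −4.06, −2.90 and −2.86 in NT and −4.57, −5.47, −4.89 and −4.31 with C3/C2, a log2 change of −1.54 (SE 0.29, adjusted p = 0.000107). With normexp it was −0.73, and the call was lost. HCAR1, the lactate receptor, fell by 1.62 (SE 0.12). SLC16A6 was above background on all NT arrays and on no C3/C2 array and was at least 1.66-fold lower. Among 21 genes that activate or break down propionate and acetate, ACSS2, which makes acetyl-coenzyme A from acetate in the cytosol and nucleus, rose by 1.32 (SE 0.09), and MMAA, which acts in cobalamin handling for propionate breakdown, fell by 1.37 (SE 0.19), or by 0.80 with normexp, where it was not called. The other 19 were not called.

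Genes that control entry into the cell cycle went in both directions. Of 29 CDK inhibitors, cyclins and partners, 8 were called higher and 2 lower, against 4 higher with scaling to the array median. At an adjusted p under 0.05 with no minimum fold (limma), 12 were higher and 10 lower. The median was 0.01 above that of all genes. CDKN1A, which encodes the CDK inhibitor p21, had levels of −4.09, −4.31, −3.83 and −4.22 in NT and −1.47, −1.48, −1.36 and −1.42 with C3/C2. The 4 treated arrays lay close together and above every untreated array, with a log2 change of 2.68 (SE 0.12, adjusted p = 4.66e-14). CDKN1C, encoding the inhibitor p57, rose by 3.00 (SE 0.17), from between 0.91 and 1.77 to between 4.15 and 4.51, and CDKN2D, encoding p19, by 1.90 (SE 0.07). MYC fell by 1.89 (SE 0.12, adjusted p = 6.16e-12), from levels of 4.47, 4.26, 4.62 and 4.43 to 2.54, 2.42, 2.65 and 2.60. RBL1, a relative of the retinoblastoma protein, fell by 1.25, while CCNE1 and CCND3, which encode cyclins, rose by 1.16 and 1.13.

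Genes of cell division and of growth were shifted down by smaller amounts. Of 30 mitosis genes 6 were lower and none higher, with a median 0.40 below that of all genes. They were the kinase genes PLK1 (−1.25), AURKA (−1.15) and TTK (−1.003), the cyclin gene CCNA2 (−1.17), the kinesin gene KIF20A (−1.01) and the kinetochore gene NDC80 (−1.01), several of them close to the 2-fold threshold. KIF20A was no longer called on leaving out replicate 1 or 2 of NT or replicate 3 or 4 of C3/C2 (−0.92 to −0.96). Of 38 DNA replication genes 3 were lower: GINS3, of the replicative helicase (−2.11, SE 0.08), CDC7, a kinase that fires origins (−1.61, SE 0.07), and RRM2, of ribonucleotide reductase (−1.27, SE 0.12). CHAF1A, of the chromatin assembly factor, was called higher at a log2 change of 1.00, and the call was lost on leaving out replicate 1 or 3 of NT or replicate 3 of C3/C2 (0.973 to 0.998). The other CHAF1A probe gave 0.70 and was not called. Of 35 ribosome biogenesis genes 3 were lower and none higher, with a median 0.45 below that of all genes, led by UBTF, the upstream binding factor of ribosomal RNA transcription (−1.92, SE 0.08). Of 53 genes of the mitochondrial ribosome 2 were lower, MRPL15 and MRPL27 (both −1.37), and 11 with scaling to the array median.

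Enzymes and readers of histone acetylation were called in small numbers. Among 22 acetyltransferases and acetyl-lysine readers, 3 were lower and none higher, a number that array median scaling raised to 6. KAT5, the catalytic subunit of the NuA4 complex that EPC1 and EPC2 also join, fell from levels of 1.10, 1.03, 1.06 and 1.18 to −1.01, −1.12, −0.90 and −0.96, a log2 change of −2.09 (SE 0.08, adjusted p = 1.63e-15). KAT6B fell by 1.45 and CREBBP by 1.05. Among 17 histone deacetylases and sirtuins, the mitochondrial SIRT4 rose by 4.57 (SE 0.49), though it was above background on 1 NT array and its NT levels ranged from −7.44 to −3.76. Without NT replicate 4 its rise was 5.28. SIRT2 rose by 1.23, SIRT5 fell by 1.14 and HDAC7 fell by 1.07, with 0.83 lower and no call at the other HDAC7 probe. Among 21 linker and variant histones, H1F0, a linker histone of non-dividing cells, rose by 2.06 (SE 0.10), H1FX by 1.17 and HIST3H2A by 1.15, and CENPA, the centromere histone, fell by 1.03, which was not called on leaving out replicate 1 or 2 of NT or replicate 4 of C3/C2 (−0.94 to −0.99).

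Genes used mainly by neurons, muscle and germ cells also had members called higher. Only 26 of 49 neuronal and synaptic genes on the array passed the filter on dim probes, and 13 of those were higher and none lower. Of these 13, 11 were above background on all 8 arrays, so they were measured in untreated cells too, and normexp called 8 higher. TUBB3, the neuronal beta-tubulin, rose from −0.52, −0.42, −0.72 and −0.54 to 2.16, 2.37, 2.52 and 2.47, by 2.93 (SE 0.15, adjusted p = 4.20e-13). RAB3A, a GTPase of synaptic vesicles, rose by 2.85 (SE 0.09), and MAP2 and MAPT, which encode microtubule-associated proteins, by 1.59 and 1.32. SYT11, a synaptotagmin, was at least 5.82-fold higher. Of 34 muscle genes, 23 passed the filter, and 11 were higher and 1 lower. Of these 11, 8 were above background on all 8 arrays, and normexp called 5 higher. They included TNNC1, cardiac and slow-muscle troponin C (2.38, SE 0.15), ACTA1, skeletal actin (2.21, SE 0.17), and TNNT1, slow-muscle troponin T (2.19, SE 0.27), while TNNI2, fast-muscle troponin I, fell by 1.75. Of 29 germ line genes on the array 11 passed and 3 were higher, TDRD6, CTAG2 (1.30) and SYCP2 (1.23), the latter pair not called with scaling to the array median and CTAG2 not called without replicate 3 of NT (0.94).

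Among 8 fibroblast and endothelial markers 2 were called higher. COL1A1, a collagen chain of fibroblasts, was above background on no NT array and on all 4 C3/C2 arrays, at least 19.5-fold higher, while the collagen genes COL1A2 and COL3A1 were above background on no array. PECAM1, an endothelial adhesion gene, rose by 1.66, and CDH5 and VWF, of the same cells, were not called (0.06 and 0.22). Among the blood markers, PTPRC, the pan-leukocyte marker, changed by 0.06 and was not called. The summed level of the 8 fibroblast and endothelial markers, in multiples of the array's 75th percentile, was 0.228 to 0.283 in NT and 0.710 to 0.815 with C3/C2, and that of the 6 blood markers was 1.89 to 2.50 and 3.45 to 4.35. The part of other cell types in these results was not tested.

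Among 18 targets and antagonists of the Wnt pathway, 5 were higher and 2 lower, and 3 were higher with normexp. KREMEN1, the paralog of KREMEN2, rose by 2.72 (SE 0.07), from between 0.58 and 0.72 to between 3.31 and 3.38, at both of its probes. EPHB2, a receptor of crypt base cells, rose by 2.52 (SE 0.15) at all 3 of its probes. The stem cell gene ASCL2 fell by 1.13 (SE 0.11), as did RNF43, which removes Wnt receptors from the cell surface (−1.20). Of 27 transcription factors of the intestine, 5 were higher and 6 lower. KLF9 rose by 2.87 (SE 0.14) and KLF4, a factor of differentiated cells, by 1.86 (SE 0.11). FOXA1 fell by 2.13 (SE 0.23), HNF4G by 1.11 and FOXA2 by 1.01. Of 29 absorptive enterocyte genes 16 passed the filter, and CA4, a membrane carbonic anhydrase, at least 2.49-fold higher, and ANPEP, aminopeptidase N (1.60), were called higher. ANPEP was above background on 2 NT arrays, and neither gene was called with normexp (0.59 for CA4 and 0.47 for ANPEP). The secretory lineage factor SPDEF fell by 1.45 (SE 0.10), and MUC1 rose by 1.24 at 1 of its 2 probes. In the tight junction list of 26 genes, OCLN, encoding occludin, rose by 1.06.

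**Figure D3:**
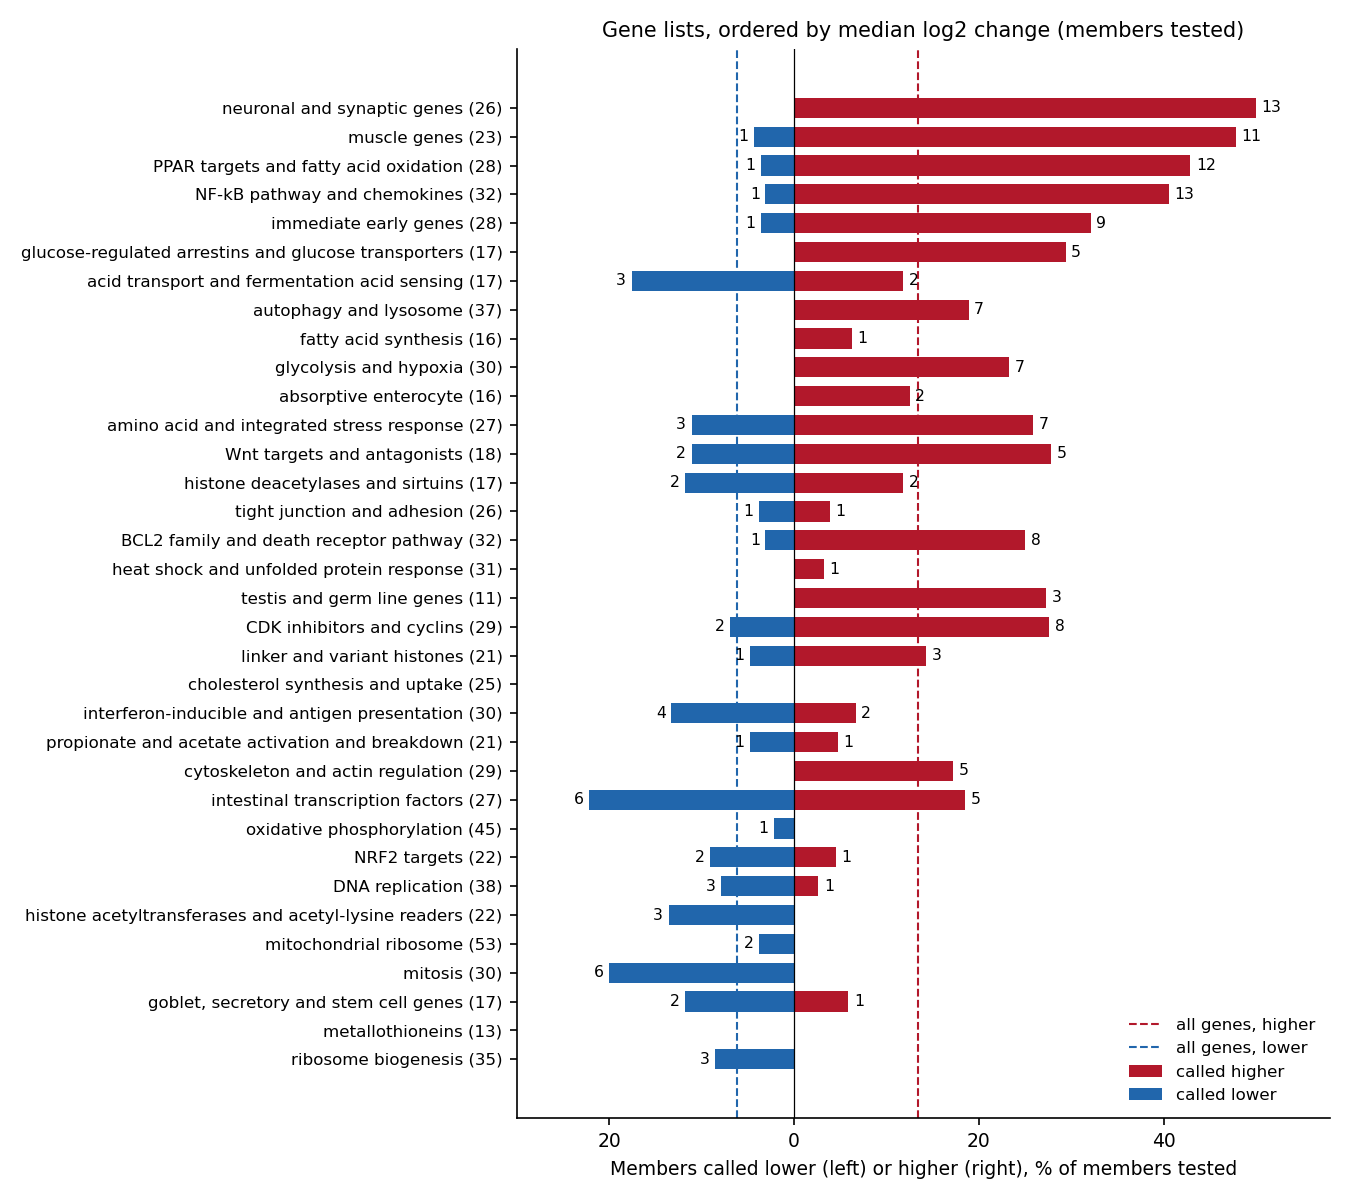
Share of the tested members of each gene list that was called higher (red, to the right) or lower (blue, to the left) with C3/C2 against NT, in percent, with the number of members called at the end of each bar and the number tested in parentheses. Lists are ordered by their median log2 change, and dashed lines mark the 13.5% and 6.17% called among all genes. Neuronal, muscle, PPAR and NF-kB lists reach furthest right, and mitosis and intestinal transcription factors furthest left.

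Inflammatory and early response genes rose in a sizeable share of their lists. Of 32 genes of the NF-kB pathway and chemokines, 13 were higher and 1 lower, with a median 0.59 above that of all genes, although 6 of the 32 were above background on no NT array. Of the 13, 8 were above background on all 8 arrays, normexp called 7 higher, and IL1A counted among the 13 while above background on no array of either group. IL1B, an inflammatory cytokine, was at least 6.23-fold higher, at −2.92, −3.02, −3.14 and −3.19 with C3/C2. CCL20, a chemokine of the gut epithelium that was above background on 2 NT arrays, rose by 3.40 (SE 0.23), and IL17C, an epithelial cytokine, by 2.11 (SE 0.21). TNF was at least 1.44-fold higher. The inhibitors of the pathway TNFAIP3 and NFKBIA rose by 1.72 and 1.35, while NFKB1, which encodes the p105 and p50 proteins, fell by 1.499. Of 28 immediate early genes 9 were higher and 1 lower, namely MYC. The nuclear receptor gene NR4A3 was at least 7.67-fold higher, and DUSP5, a phosphatase of ERK kinases, rose by 2.43 (SE 0.08), FOSB by 2.26 (SE 0.19) and IER5 by 2.16 (SE 0.08).

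Of 32 genes of the BCL2 family and the death receptor pathway, 8 were higher and 1 lower, against 5 and 4 with scaling to the array median. At an adjusted p under 0.05 with no minimum fold (limma), 14 were higher and 14 lower. The median was 0.05 above that of all genes. Rises included genes that promote death and genes that oppose it. BMF, a BH3-only protein, had levels of −1.64, −1.61, −1.18 and −1.17 in NT and 2.25, 2.27, 2.25 and 2.23 with C3/C2, a log2 change of 3.65 (SE 0.15, adjusted p = 7.20e-15). The treated arrays were nearly alike, while NT replicates 1 and 2 lay below 3 and 4. BIK, another BH3-only gene, rose by 2.47 (SE 0.07), and BBC3 and BCL2L11, which encode PUMA and BIM, by 1.69 and 1.14. The other BCL2L11 probes gave 1.02, called higher, and −0.36, not called. TNFRSF10C, a decoy receptor for TRAIL, was at least 2.52-fold higher, and BIRC3, an inhibitor of apoptosis induced by NF-kB, rose by 1.90 (SE 0.12). CASP8, the initiator caspase of death receptors, fell by 1.14 at 1 of 2 probes. CFLAR, which encodes the inhibitor FLIP of that caspase, was measured by 4 probes that disagreed. The probe that represented it, the brightest over all 24 arrays, changed by 0.26 and was not called, while the other 3 fell by 1.66 (SE 0.14), 1.72 (SE 0.13) and 1.82 (SE 0.13).

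Autophagy and stress genes were called in smaller numbers. Of 37 autophagy and lysosome genes 7 were higher and none lower, among them MAP1LC3A, encoding a protein of autophagosome membranes (2.84, SE 0.08), ATG2A, of lipid transfer to autophagosomes (2.13, SE 0.10), NEU1, a lysosomal sialidase (2.02, SE 0.08), and MCOLN1, a lysosomal calcium channel (1.38, SE 0.08). Of 27 genes of amino acid shortage and the integrated stress response, 7 were higher and 3 lower, with SESN2 (1.90) and CEBPB (1.65) among the rises and ATF5 (−1.94) and NUPR1 (−2.25, SE 0.57) among the falls. In the NRF2 list HMOX1, heme oxygenase, rose by 1.48, while OSGIN1 and KEAP1, the sensor that holds NRF2 in the cytoplasm, fell by 2.06 and 1.88. ERN1 was the 1 gene called among 31 of heat shock and the unfolded protein response (1.06), and it was not called with the scalings to the array median or to spike-ins, nor on leaving out replicate 1 of NT (0.93) or replicate 3 of C3/C2 (0.99). No metallothionein was called by limma among 13 tested, with 3 higher and 7 lower at an adjusted p under 0.05 with no minimum fold. Of 29 cytoskeletal genes 5 were higher and none lower, among them the tubulin genes TUBB2B, at least 19.9-fold higher, and TUBB2A (1.35, SE 0.09). TUBB6 was above background on 2 NT arrays, and its log2 change of 2.63 (SE 0.51) was 0.69 with normexp, where it was not called.

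Interferon-inducible genes split in direction. Of 30 genes of interferon response and antigen presentation, 4 were lower, namely IFI44L, IFIT3, OAS2 and IFI44, and 2 were higher, OASL (1.57, SE 0.22) and IRF7 (1.51, SE 0.11). IFIT3 had levels of 0.66, 0.58, −0.34 and −0.17 in NT and −1.19, −1.32, −2.44 and −2.19 with C3/C2, a log2 change of −1.97 (SE 0.38, adjusted p = 0.000107). IFI44 had levels of 0.49, 0.57, −0.58 and −0.57 in NT and −0.86, −1.02, −2.33 and −2.40 with C3/C2, a log2 change of −1.63 (SE 0.51, adjusted p = 0.00783). In each group replicates 1 and 2 lay above replicates 3 and 4, whereas the difference between C3/C2 and NT of the same replicate number was −1.35, −1.59, −1.75 and −1.83 for IFI44. Replicates 1 and 2 lay above replicates 3 and 4 in both NT and C3/C2 for 26 of the 30 genes (86.7%) and below them for none, against 12.9% above and 12% below over all genes tested. This split was chosen after the values were seen and follows neither slide, since the second slide held replicates 2, 3 and 4. OAS2 fell by 1.81 (SE 0.58) at 1 of 3 probes, and IFI44L by 2.01 (SE 0.81, adjusted p = 0.0363), a call lost without NT replicate 1 or 2 or without C3/C2 replicate 3 or 4 (−1.54 to −1.76).

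**Figure D4:**
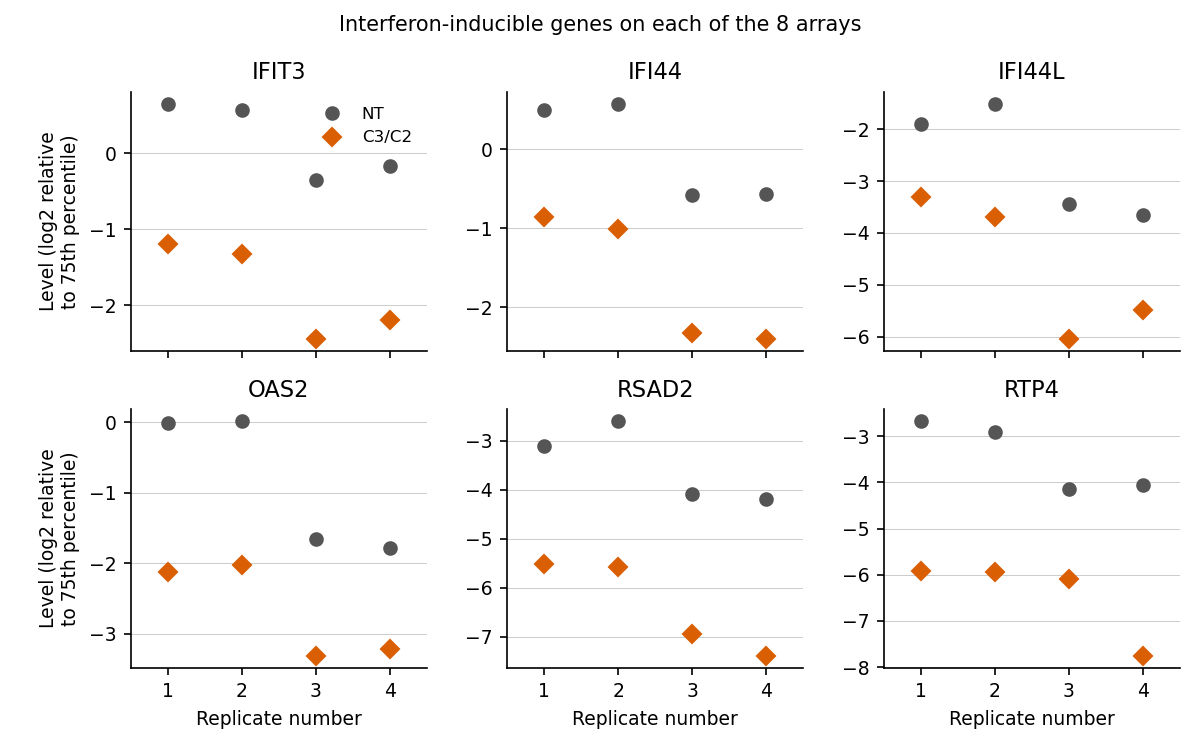
Levels (log2 relative to the array's 75th percentile) of 6 interferon-inducible genes on each array by replicate number, with circles for NT and diamonds for C3/C2. C3/C2 lies below NT within every replicate number, and for these genes replicates 1 and 2 lie above replicates 3 and 4 in NT.

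The response was largely repeated when TRAIL was present. TRAIL+C3/C2 against TRAIL shares no array with C3/C2 against NT. It called 3055 genes higher (14.8%) and 1275 lower (6.16%). Of the 2785 genes that rose with C3/C2 alone, 2475 were also called higher with TRAIL present, 88.9% of the first list and 81.0% of the second. Of the 1278 that fell, 1009 were also called lower, 79.0% of the first list and 79.1% of the second, and 1 was called higher. The log2 change had the same sign in 2778 of the genes that rose and 1266 of those that fell. CDKN1A rose by 2.65 with TRAIL present, CEND1 by 7.38 and MLXIPL by 4.07, and KCNE3 fell by 3.48, beside 2.68, 7.11, 4.13 and 3.52 without TRAIL. A test of the difference between the C3/C2 effects with and without TRAIL called 103 genes above 0 (0.498%) and 34 below (0.164%), and none of the genes named by the rule for leading genes was among them. TRAIL and TRAIL+C3/C2 lay on different slides, so slide and group cannot be told apart in that comparison. TRAIL+C3/C2 lay in the first row of its slide and TRAIL in the second row of its own. An effect of row was not tested.

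**Figure D5:**
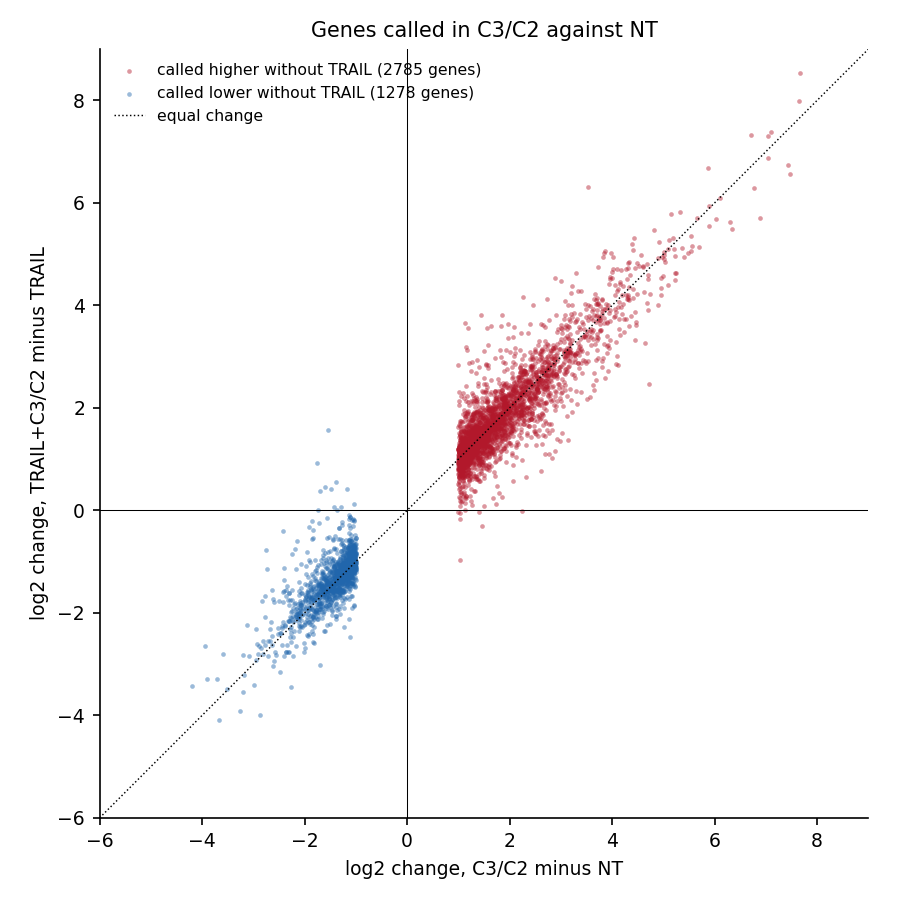
Log2 change with C3/C2 in the absence of TRAIL (horizontal axis) and in its presence (vertical axis) for the 2785 genes called higher (red) and the 1278 called lower (blue) in C3/C2 against NT. The dotted line marks equal change, and 2778 of the red and 1266 of the blue points have the same sign on both axes.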

How the data were processed

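Each RNA was labelled with Cy3 by the authors and put alone on an Agilent human genome array. The 24 deposited files hold spot intensity from Agilent Feature Extraction 10.7.3.1, with background and spatial trends already subtracted per the file headers. These deposited values carry no scaling across arrays. A second deposited table, in which intensity is divided by each array's median, was used as an alternative. The raw mean and background intensity that the authors' software wrote served for the alternative with limma's normexp correction (offset 50).

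Control spots were left out, and spots of a probe were averaged as log2. Spots marked as outliers were left out of that average unless all spots of the probe were so marked. Each array's 75th percentile, taken over all spots that are not controls, was subtracted. A probe was kept if every array of some group marked it well above background, which 27953 of 50599 were, and the probe with the highest mean represented each of 20700 genes. limma 3.58.1 (R 4.3.3) estimated 6 group means from all 24 arrays (18 residual degrees of freedom), with Benjamini-Hochberg adjustment of p-values. The median SE of a log2 difference was 0.11, a precision set by the number of arrays. On simulated data with 20700 genes, 47 of 50 genes lowered by 1.5 (log2) and 48 of 50 raised by 1.5 were called in C3/C2 against NT, and 5 of 20500 unchanged genes.

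Named genes were the 12 leading rises and falls among symbols above background on all 8 arrays with no overlap, the 6 largest bounds in each direction, and up to 4 called members of each list. Other members were named after their values were seen, and some genes that the rule named are not reported here. The comparison, the lists and their members were chosen with earlier results of these data known. Promoters came from RefSeq (GRCh38.p14), matched by accession for 14618 genes and by accession or symbol for 15227.

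Deviations of NT and C3/C2 arrays of the same replicate number from their group means correlated with r of 0.24 to 0.47. Those of different numbers gave r of −0.33 to 0.24, the highest for NT replicate 4 with C3/C2 replicate 3. Arrays of the same number also shared a slide and a column. The numbers were taken to pair the samples in the alternative with a replicate block and in differences by replicate number. The main fit held no term for them.

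Alternatives were array median, quantile and spike-in scaling, the authors' table, normexp, other filters on dim probes, the median of a gene's probes, the 8 arrays alone, slide or replicate number as a block, slide 2 alone, no minimum fold, a test against a fold of 1.5, and leaving out each replicate. Plots used matplotlib 3.10.9 (Python 3.11.15).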

Additional observations from a re-analysis of the deposited data

Results flagged for a closer look

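In 9 of 270 sets of 4 arrays, 1 array of a named gene stood apart from the other 3 by Dixon's criterion for the gap relative to the range, which chance meets in about 1 of 20 such sets. All values are log2 levels relative to the array's 75th percentile. The widest gap was that of DACT3 in NT replicate 1, at −2.28 against −5.55 to −5.19. RTP4 was at −7.76 in C3/C2 replicate 4 against −6.08 to −5.92, DACT1 at −7.01 in NT replicate 2 against −7.86 to −7.73, and IL17C at −5.53 in NT replicate 1 against −4.75 to −4.60. RAB3A was at −1.56 in NT replicate 4 against −1.88 to −1.84, and SYT11 at −7.81 in NT replicate 2 against −7.56 to −7.54. ZMYND10 was at 0.43 in C3/C2 replicate 1 against 0.33 to 0.34, EPC1 at −1.755 in C3/C2 replicate 3 against −1.85 to −1.835, and HDAC7 at 0.236 in C3/C2 replicate 2 against 0.198 to 0.201. DACT1 and SYT11 in NT and RTP4 in C3/C2 were not well above background on any array of that group.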

How the results depend on the processing

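No named gene changed direction under any alternative, and 98 of 135 kept their call under all of them; 29 lost it with normexp, which called 1532 genes higher and 690 lower in C3/C2 against NT and 1592 and 615 in TRAIL+C3/C2 against TRAIL. Scaling to the array median, which the authors' table equals, called 2002 higher and 2345 lower, and 1858 and 3272 with TRAIL present, where the share of rises among calls went from 70.6% to 36.2%. Spike-in scaling called 2270 and 1864, and 1866 and 3227 with TRAIL. With no minimum fold, 7295 and 5741 genes were called, and 7716 and 5876 with TRAIL. Without each replicate in turn the counts were 2700 to 2817 higher and 1247 to 1322 lower, and 2976 to 3113 and 1253 to 1316 with TRAIL. With the replicate block they were 2775 and 1282, and 3001 and 1271 with TRAIL, and among named genes only SLC2A12 lost its call. Within slide 2 they were 2815 and 1298, and without the filter on dim probes 3259 and 1467 of 36337. The causes of these shifts were not tested. Signal near background limits the folds of dim genes.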
